A study of Bos taurus with 96 samples.

Results

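Mesothelin (MSLN), uroplakin 3B (UPK3B), WT1, calretinin (CALB2), LRRN4, BNC1, intelectin 1 (ITLN1) and the keratins KRT8, KRT18 and KRT19 were followed over 5 bovine fat depots and 1 muscle. Probes were assigned to these 10 genes by the RefSeq accession printed on the array or by the probe names the study tabulated. Of the 43653 probes on the array that are not controls, 15 carried a member. Of these, 10 probes, for 5 genes (MSLN, UPK3B, KRT8, KRT18 and KRT19), were among the probes that were tested, which name 10680 genes in all. CALB2 and ITLN1 had a probe that was not among those tested, and no probe was named WT1, LRRN4 or BNC1.

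Total RNA from intramuscular fat dissected out of M. longissimus dorsi (IMF), omental fat (Omen), kidney fat (Kid), the fat between muscles (Inter) and subcutaneous fat over the rump (SC) was hybridised on 12 arrays per depot, with 4 Angus, 4 Hereford and 4 Wagyu x Angus steers in each. M. longissimus dorsi itself (LD), sampled with its intramuscular fat in place, was read on 36 arrays, 8 on pasture and 4 on supplement in each breed. Every fat sample came from a steer fed on pasture after weaning, and all the labels give 259 days in a feedlot, with slaughter at about 26 months. The fat depots came from the same 15 steers (5 per breed), some LD samples came from an earlier kill, and the labels say neither which arrays share a steer nor which kill an LD sample is from. Arrays of a depot are named here by breed and a letter. All depots are tissue as dissected, so fewer cells of a type and less RNA per cell cannot be told apart in any value given here.

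Mesothelium is the single layer of flat cells that lines the body cavities and covers the organs and the omentum. MSLN, a glycoprotein tethered to the cell surface, and UPK3B, a membrane protein related to those of the bladder lining, are widely used to mark it, as are WT1, CALB2, LRRN4 and BNC1. KRT8 and KRT18 are partners that build the intermediate filaments of simple epithelia, and KRT19 is a further keratin of such epithelia. Mesothelial cells make all 3 keratins, so a keratin alone does not mark them. In the RefSeq annotation of another cattle build the genes for KRT18 and KRT8 lie on 1 chromosome with 1 non-coding gene between them.

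Expression is given as log2 of the processed spot intensity minus the 75th percentile of the same array, so a value of 0 is the level of a probe at that percentile. Values below 0 are common and do not mean absence. A probe is called well above background where the scanner software flagged it so. The share of probes well above background had medians from 75.1% in LD to 83.7% in Omen, and the lowest and highest arrays stood at 66.2% and 96.5%. Arrays of 1 tissue correlated with each other at 0.921 to 0.993, and none held the values of another. Tissues were compared 2 at a time with limma over all probes tested, and p-values were adjusted by Benjamini-Hochberg with a threshold of 0.05. The p-values measure the spread between arrays, in which steer, dissection and array cannot be told apart. The steers shared between depots could not be entered. Tissue and scan day were largely tied together, since all IMF arrays were scanned on the third scan day, all Inter arrays on the second, 10 of 12 Omen arrays on the third and 11 of 12 SC arrays on the first.

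MSLN was highest in omental fat. On probe A_73_P263591 the 12 Omen arrays ran from -6.09 to 0.72 with a median of -3.87. SC ran from -6.77 to -4.73 (median -5.58), Kid from -8.14 to -4.51 (median -5.72), Inter from -7.97 to -4.87 (median -5.81) and IMF from -6.55 to -4.80 (median -5.36). The 36 LD arrays ran from -6.60 to -3.99 with a median of -5.02. Omen overlapped every other tissue at its lower end and reached far above all of them at its upper end. The probe was well above background on all 12 Omen arrays, on 8 of 12 SC arrays and on 29 of 36 LD arrays, so part of the low values lie close to background.

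MSLN in Omen exceeded SC by 3.02 ± 0.78 in log2 (SE, n = 12 and 12; limma adjusted p = 0.00292), which is 8.09-fold with a 95% interval of 2.65 to 24.7. Against Kid the difference was 3.25 (adjusted p = 0.0115), against Inter 3.63 (adjusted p = 0.00555) and against IMF 2.75 (adjusted p = 0.00386). MSLN did not pass the threshold in Kid against SC (difference -0.23, adjusted p = 0.62) or in Inter against SC (-0.61, adjusted p = 0.158). Under normexp background correction, which compresses low values, the Omen minus SC difference of MSLN was 1.09 and its adjusted p 0.0598, so that call is lost there. Within the third scan day, where 10 Omen arrays met 1 SC array, the difference was 2.29.

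The second MSLN probe, A_73_P039726, was not among those tested. Its mean was likewise highest in Omen (-3.46, SD 3.40). It was well above background on 10 of 12 Omen arrays, on 2 SC arrays, on 2 IMF arrays, on 4 Inter arrays, on 3 Kid arrays and on none of the 36 LD arrays, so it gives no order among the tissues other than Omen. Taking the detection limit of the LD arrays (-5.86) as the level there, the mean of Omen was at least 5.28-fold above LD. This bound is for the mean alone, since single Omen arrays lay below that limit, down to -7.35. In a fit over all non-control probes its Omen minus SC difference was 3.33 (adjusted p = 0.0079), with SC measured above background on 2 arrays only.

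UPK3B was higher on part of the omental arrays, and its mean set Omen apart from fewer tissues than the mean of MSLN did. On probe A_73_117678, well above background on all 96 arrays, Omen ran from -1.99 to 1.68 with a median of -1.25. SC ran from -1.32 to -0.51 and LD from -1.35 to -0.26, with medians of -0.91 and -0.70. Kid (-2.07 to -1.18), IMF (-2.10 to -1.16) and Inter (-2.46 to -1.53) lay lower. UPK3B in Omen exceeded Inter by 1.53 (adjusted p = 0.0157; 2.88-fold) and IMF by 1.37 (adjusted p = 0.00629). With slide as a random block the call against Inter was lost (1.57, adjusted p = 0.0523). The differences from Kid (1.18, adjusted p = 0.0557) and from SC (0.53, adjusted p = 0.293) did not pass. Both passed with scan day as a block over all 96 arrays, at 1.43 (adjusted p = 4.26e-05) and 0.79 (adjusted p = 0.0247). The difference from Kid also passed under normexp (adjusted p = 0.0476), on the centred series matrix values (adjusted p = 0.0354), in 1 fit of 6 tissues (adjusted p = 0.000104) and without any 1 of 6 Omen arrays (Angus b, Angus c, Angus d, Hereford c, Wagyu x Angus a or Wagyu x Angus d; adjusted p from 0.0334 to 0.0486), and the difference from SC on the unscaled series matrix values (1.36, adjusted p = 0.00431).

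**Figure D1:**
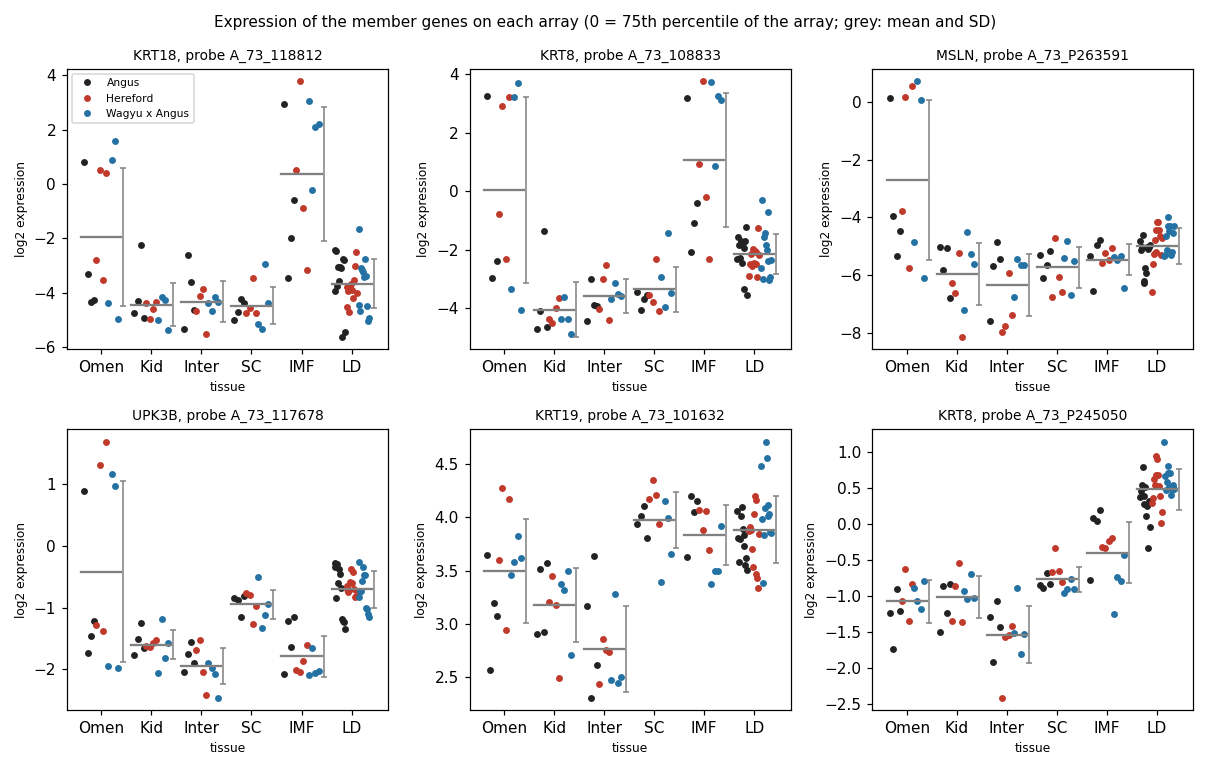
Expression of 5 member genes on 6 probes by tissue. The y axis is log2 processed intensity minus the array's 75th percentile, each point is an array coloured by breed, and the grey line and bar are the mean and SD (12 arrays per depot, 36 for LD). KRT18 and KRT8 (A_73_108833) spread widely in IMF and Omen, MSLN and UPK3B most in Omen, and KRT8 (A_73_P245050) and KRT19 in neither.

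The spread in Omen was uneven. The arrays Angus a, Hereford b, Hereford d, Wagyu x Angus b and Wagyu x Angus c, 5 of 12, lay above the other Omen arrays by a wide gap, and the following values are given array by array without averaging or testing them. MSLN (A_73_P263591) stood at 0.14, 0.18, 0.56, 0.72 and 0.09 on these arrays in the order named, against -6.09 to -3.79 on the other Omen arrays. UPK3B (A_73_117678) stood at 0.89, 1.31, 1.68, 1.16 and 0.96, against -1.99 to -1.22. On these probes all 5 arrays exceeded each of the 72 SC, Inter, Kid and LD arrays. On the UPK3B probe A_73_P331686 none of the 12 Omen arrays did, and the 5 arrays stood there at -3.84, -2.95, -3.07, -3.35 and -4.09, below the highest of the 72 (-2.80).

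The simple-epithelial keratin pair stood out on the same omental arrays. KRT8 (A_73_108833) measured 3.26, 2.91, 3.24, 3.22 and 3.70 there, against -4.07 to -0.77 on the other Omen arrays. KRT18 (A_73_118812) measured 0.79, 0.50, 0.40, 0.87 and 1.60, against -4.96 to -2.80. The array Omen Angus b has no value for KRT8 A_73_108833, because the scanner marked the spot as an outlier, and this probe therefore has 11 Omen arrays throughout. For each of KRT18 A_73_118812, KRT8 A_73_108833 and UPK3B A_73_117678, exactly these 5 arrays exceeded all 72 arrays of SC, Inter, Kid and LD. For MSLN A_73_P263591, Angus b (-3.96) and Hereford a (-3.79) exceeded them as well, by little, since the highest other array was at -3.99. Which steers the arrays came from is not given, and each of the 3 breeds is among the 5.

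**Figure D2:**
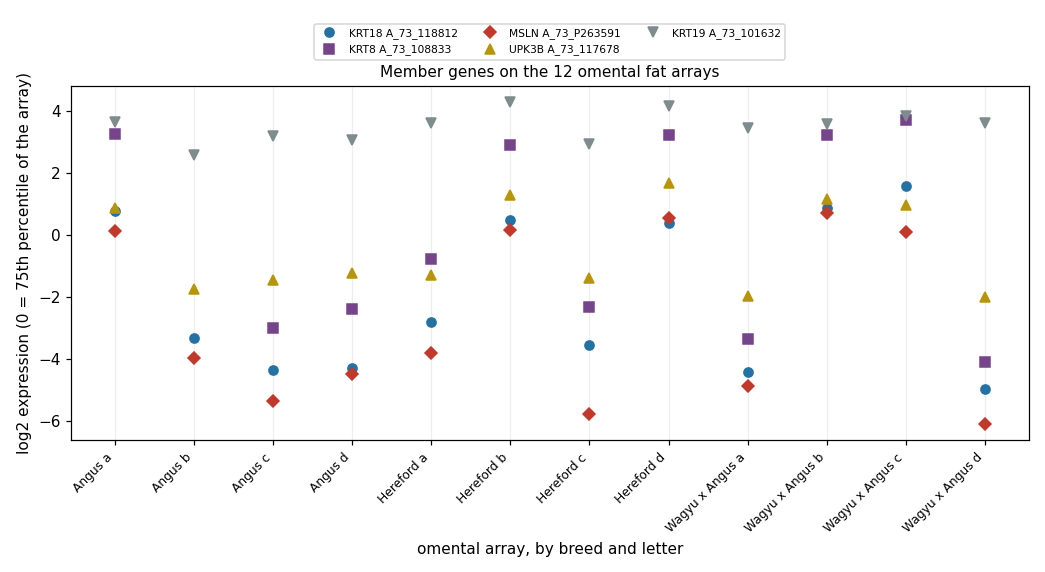
MSLN, UPK3B, KRT8, KRT18 and KRT19 on each of the 12 omental arrays. The x axis lists the arrays by breed and letter, and the y axis is log2 processed intensity minus the array's 75th percentile. Each kind of marker is 1 probe, with no value for KRT8 on Angus b. MSLN, UPK3B, KRT8 and KRT18 are high together on Angus a, Hereford b, Hereford d, Wagyu x Angus b and Wagyu x Angus c, and KRT19 stays between 2.57 and 4.28.

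Technical measures of the same arrays were set beside this. The 5 arrays were spread over 4 slides that also carried the remaining Omen arrays. Their share of probes well above background was 77.6% to 88.7%, inside the range of the other Omen arrays (79.5% to 96.5%) except at its lower end. Of the 2 Omen arrays scanned on the second day, Angus a was among the 5 and Angus b was not. The mean of the adipocyte genes ranged only from 4.59 to 5.37 over the 12 Omen arrays, and 1 of the 5 arrays was among its 5 highest. By the same count over 14 lists, the 5 arrays held all 5 highest places for the mesothelial list, 4 for the adrenal cortex list, 3 each for the lymphoid, stratified epithelium, desmosome and other keratin lists, 2 each for 6 lists and 1 for the endothelium list. Their part in the member values was not tested.

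KRT18 (A_73_118812) and KRT8 on probe A_73_108833 were highest in intramuscular fat and next highest in omental fat, while the brightest KRT8 probe, described further on, was highest in LD. KRT18 (A_73_118812) ran from -3.45 to 3.78 in IMF with a median of 0.15, against -5.36 to -2.96 in SC (median -4.64), -5.52 to -2.63 in Inter, -5.36 to -2.26 in Kid and -5.63 to -1.68 in LD. IMF overlapped these tissues at its lower end, and 9 of 12 IMF arrays exceeded all 72 of their arrays. KRT8 (A_73_108833) ran from -2.31 to 3.76 in IMF with a median of 0.91, against -4.10 to -1.44 in SC, -4.43 to -2.53 in Inter, -4.87 to -1.37 in Kid and -3.54 to -0.31 in LD. For KRT8, 8 of 12 IMF arrays exceeded all 72 of those arrays.

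KRT18 in IMF exceeded SC by 4.83 ± 0.70 (SE, n = 12 and 12; limma adjusted p = 1.97e-06), 28.5-fold with a 95% interval of 10.5 to 77.8, and LD by 4.02 ± 0.47 (adjusted p = 8.69e-11), 16.3-fold with an interval of 8.49 to 31.2. KRT8 (A_73_108833) exceeded SC by 4.43 ± 0.66 (adjusted p = 2.86e-06; 21.6-fold, 8.41 to 55.6) and LD by 3.22 ± 0.41 (adjusted p = 1.19e-09; 9.33-fold). The study had picked both genes from these same samples for higher expression in IMF than in SC and LD. These p-values are therefore no independent test of that difference. Within the third scan day the IMF minus LD differences were 4.67 for KRT18 and 3.63 for KRT8, over 12 IMF and 8 LD arrays. LD contains intramuscular fat in place together with muscle fibres, and KRT18 A_73_118812 and KRT8 A_73_108833 were lower in it than in IMF dissected from the same muscle. The brightest KRT8 probe, A_73_P245050, went the other way (IMF minus LD -0.88, adjusted p = 5.09e-10), but not on the unscaled series matrix values (-0.0052, adjusted p = 0.971).

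In Omen, KRT18 exceeded SC by 2.52 ± 0.72 (adjusted p = 0.00593; 5.75-fold, 2.06 to 16.0) and KRT8 A_73_108833 by 3.40 ± 0.90 (adjusted p = 0.00345; 10.6-fold, 2.93 to 38.1). Against Kid the differences were 2.49 (adjusted p = 0.0267) and 4.09 (adjusted p = 0.00583), and against Inter 2.38 (adjusted p = 0.0313) and 3.64 (adjusted p = 0.00978). With slide as a random block KRT18 no longer passed against Inter (2.44, adjusted p = 0.0879), whereas KRT8 A_73_108833 did (3.86, adjusted p = 0.0322). The KRT18 difference from Kid failed the threshold with slide as a random block (adjusted p = 0.0879) and on the series matrix values (adjusted p = 0.0552), and within the third scan day it was 0.16, where 10 Omen arrays met a single Kid array that had the highest KRT18 of its depot (-2.26). KRT18 was lower in Omen than in IMF (difference -2.31, adjusted p = 0.044), a call lost under 6 of 13 alternatives (adjusted p from 0.0524 to 0.0857), among them the replicate block (adjusted p = 0.0788). KRT8 A_73_108833 did not pass there (-1.03, adjusted p = 0.431).

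MSLN A_73_P263591 differed between IMF and SC by 0.26 (adjusted p = 0.356), and its direction depended on the processing. It was called higher in IMF on the unscaled series matrix values (0.61, adjusted p = 0.0129) and lower with normexp (-0.46, adjusted p = 0.00269), and the sign also turned under quantile normalization (-0.13, adjusted p = 0.672). UPK3B A_73_117678 was lower in IMF than in SC (difference -0.84, adjusted p = 1.17e-06). No IMF array exceeded the 72 SC, Inter, Kid and LD arrays for either gene. That UPK3B call was lost with scan day as a block (-0.53, adjusted p = 0.13) and on the unscaled series matrix values (-0.22, adjusted p = 0.275), and the UPK3B probe A_73_P331686 was called higher in IMF than in SC (0.64, adjusted p = 0.00278). Against LD, MSLN in IMF was lower (difference -0.47, adjusted p = 0.0295), a call that is lost without IMF Angus b (adjusted p = 0.0869) or IMF Wagyu x Angus d (adjusted p = 0.083), in 1 fit of 6 tissues (adjusted p = 0.281), with scan day as a block (adjusted p = 0.377) and with slide as a random block (adjusted p = 0.14). UPK3B A_73_117678 was lower in IMF than in LD (difference -1.08, adjusted p = 2.5e-13), while the other UPK3B probes did not pass there, A_73_P036641 at -0.08 (adjusted p = 0.515) and A_73_P331686 at -0.28 (adjusted p = 0.141).

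**Figure D3:**
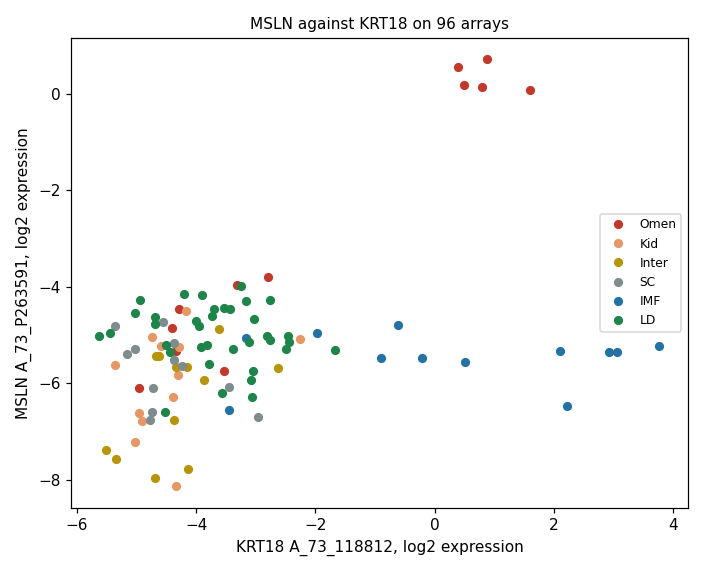
MSLN (A_73_P263591, y axis) against KRT18 (A_73_118812, x axis) on all 96 arrays, both as log2 processed intensity minus the array's 75th percentile, coloured by tissue. Omental arrays with MSLN of 0.09 or more have KRT18 of 0.40 or more, and IMF arrays with KRT18 up to 3.78 have MSLN no higher than -4.80.

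**Figure D4:**
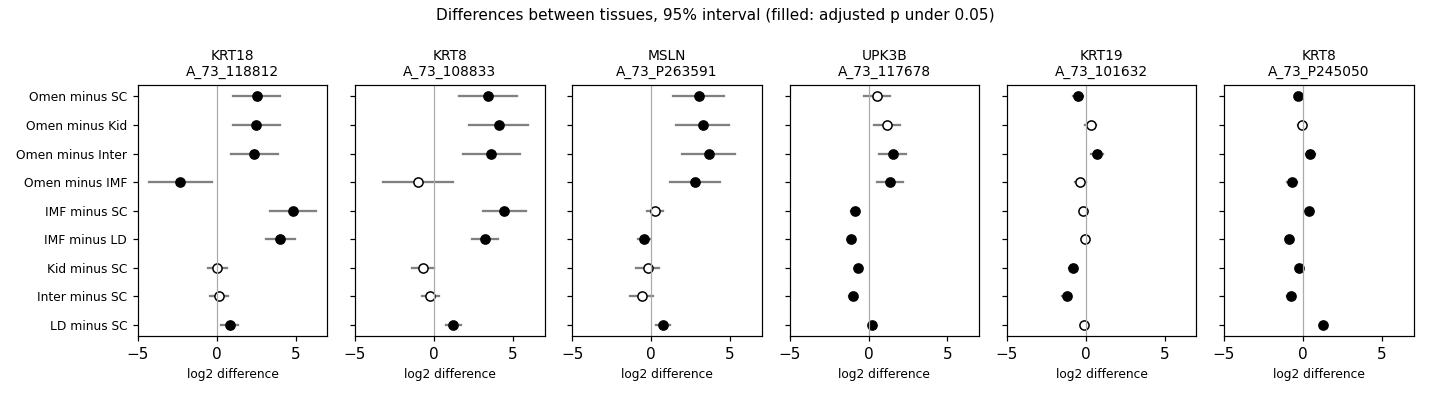
Differences between tissues in log2 expression for 6 member probes. Each point is a difference from limma over the arrays of the 2 tissues, and its bar is the 95% interval. KRT18 and KRT8 (A_73_108833) lie well above 0 for IMF against SC and LD, and MSLN for Omen against each of SC, Kid, Inter and IMF.

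The probes of a gene disagreed in places. KRT18 A_73_P107191 followed A_73_118812 over the 60 fat arrays (r = 0.970), and KRT8 A_73_108833 followed KRT18 A_73_118812 at 0.969 over 59 of them. KRT8 A_73_P500853 did so at 0.912. The brightest KRT8 probe, A_73_P245050, had a correlation of 0.273 with KRT18 in the fat arrays and of 0.817 with KRT19. These correlations are descriptions across arrays that share steers, slides and tissues. In IMF, where KRT18 and KRT8 A_73_108833 correlated at 0.988, A_73_P245050 ran against KRT18 (-0.684).

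Means of KRT8 A_73_P245050 were 0.48 (SD 0.29) in LD, -0.40 (SD 0.43) in IMF, -0.78 (SD 0.17) in SC, -1.02 (SD 0.29) in Kid, -1.08 (SD 0.30) in Omen and -1.54 (SD 0.39) in Inter, and every step of this order passed the threshold except that from Kid to Omen. The step from SC to Kid was lost or turned under 10 of 13 alternatives and that from Omen to Inter under 3 of 13. Its spread within IMF and Omen was narrower than that of the other KRT8 probes. It was lower in Omen than in SC (difference -0.30, adjusted p = 0.0158) and higher in IMF than in SC (0.37, adjusted p = 0.0154), and the first sign turned on the unscaled series matrix values. The Omen call was also lost with arrays centred on their mean (adjusted p = 0.0614), on the centred series matrix values (-0.14, adjusted p = 0.258) and with scan day as a block (-0.056, adjusted p = 0.815). It is named for KRT8 by its accession, and whether it reads KRT8 transcripts or those of another keratin cannot be decided from intensities. UPK3B A_73_P036641 followed A_73_117678 in its calls for Omen against Inter (1.57, adjusted p = 0.0142) and for IMF against SC (-0.62, adjusted p = 0.000241), the latter lost with scan day as a block (adjusted p = 0.124) and on the unscaled series matrix values (adjusted p = 0.903). The same probes were called in opposite directions in LD against SC, A_73_117678 higher in LD (0.24, adjusted p = 0.0184; lost under 5 of 14 alternatives) and A_73_P036641 lower (-0.55, adjusted p = 1.02e-06), and Omen was above LD on A_73_P036641 (1.09, adjusted p = 7.5e-05). The third UPK3B probe, A_73_P331686, went the other way in IMF against SC, a call lost under quantile normalization (adjusted p = 0.0529), with scan day as a block (adjusted p = 0.299) and under normexp, where the sign turned (-0.046, adjusted p = 0.726). It lay lower in Omen than in LD (-0.65, adjusted p = 0.00281), which turned on the unscaled series matrix values (0.36, adjusted p = 0.121).

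Dim probes of the keratins gave bounds only. KRT18 A_73_P107191 was well above background on no SC array. The mean of IMF was at least 9.52-fold and that of Omen at least 1.92-fold above the SC detection limit (-6.07). KRT8 A_73_P204142, not among the tested probes, was likewise well above background on no SC array. Its mean in IMF was at least 3.73-fold and in Omen at least 1.76-fold above that limit. Single arrays lay below the limit, down to -7.30 in IMF and -8.04 in Omen for the KRT18 probe. For the KRT8 probe they reached -9.00 and -9.31.

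KRT19 was well above background on all 96 arrays. Its means were 3.98 (SD 0.26) in SC, 3.88 (SD 0.31) in LD, 3.83 (SD 0.28) in IMF, 3.5 (SD 0.49) in Omen, 3.18 (SD 0.35) in Kid and 2.77 (SD 0.40) in Inter. No neighbours in this order passed the threshold. KRT19 was lower than in SC in Inter (-1.21, adjusted p = 2.49e-07), Kid (-0.80, adjusted p = 1.85e-05) and Omen (-0.48, adjusted p = 0.0143). On the unscaled series matrix values the calls for Inter (adjusted p = 0.350) and Kid (adjusted p = 0.430) were lost, with the sign turned for Kid. The Omen call was lost under quantile normalization (adjusted p = 0.135) and with scan day as a block (adjusted p = 0.231), and its sign turned on the unscaled series matrix values. KRT19 did not pass in IMF against SC (-0.14, adjusted p = 0.269) or against LD (-0.05, adjusted p = 0.685), with signs that turned in both under some alternatives.

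In order of their means, KRT18 (A_73_118812) fell from IMF to Omen (2.31 apart, adjusted p = 0.044), to LD (1.71 apart, adjusted p = 0.001) and to Inter (0.67 apart, adjusted p = 0.028, lost under 5 of 12 alternatives), and Inter, Kid and SC did not differ beyond their spread. For KRT8 A_73_108833 the order was IMF, Omen, LD, SC, Inter and Kid. The steps from Omen to LD (2.19) and from LD to SC (1.21) passed, and the remaining steps did not. For MSLN A_73_P263591 it was Omen, LD, IMF, SC, Kid and Inter, and the steps from Omen to LD (2.28) and from LD to IMF (0.47, adjusted p = 0.030) passed, the latter with the losses given above. For UPK3B A_73_117678 it was Omen, LD, SC, Kid, IMF and Inter. LD over SC (0.24, adjusted p = 0.018, with the losses given above) and SC over Kid (0.65) passed the threshold, and Omen against LD did not (adjusted p = 0.274). The call of SC over Kid was lost under 1 of 13 alternatives (adjusted p = 0.324). Of all probes, 82.1% were called in Omen against LD, 83.8% in Inter against LD, 80.2% in Kid against LD, 55.8% in IMF against Kid, 62.7% in IMF against Inter and 15.4% in Kid against Inter.

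Counted over the 10 tested member probes, 4 were higher and 2 lower in Omen than in SC, where 20.5% of all probes were called higher and 25.2% lower. Their median difference was 1.34, against -0.03 over all probes. Omen against Kid had 4 higher and 0 lower members, where 5.78% and 6.34% of all probes were called, and Omen against Inter 9 higher and 0 lower, where 7.69% and 5.87% were. With slide as a random block the latter count fell from 9 to 3, and that against Kid from 4 to 2. The median member difference was 1.44 against Kid and 1.81 against Inter. In Omen against IMF, 3 members were higher and 3 lower, beside 28.4% and 27.8% of all probes. IMF against SC had 6 higher and 2 lower (31.2% and 33.0% of all probes), and IMF against LD 4 higher and 3 lower (36.1% and 39.2%). Kid and Inter against SC each had 0 higher and 4 lower members, where 19.4% and 22.2% of all probes were called higher and lower in Kid, and 21.6% and 27.2% in Inter. Under normexp all 10 were lower in both, while on the unscaled series matrix values 3 were higher and 0 lower in both, and for Kid 2 were called in 1 fit of 6 tissues and 2 with scan day as a block. LD against SC had 7 higher and 1 lower (42.5% and 40.4%), and the 8 calls fell to 5 with slide as a random block, to 5 on the unscaled series matrix values, to 4 in 1 fit of 6 tissues and to 4 with scan day as a block. Probes of 1 gene share its transcripts and are not independent, and comparisons that share a tissue share its arrays.

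CALB2 (A_73_106461) and ITLN1 (A_73_104463, annotated as LOC508016, for which both ITLN1 and ITLN2 are listed as synonyms) were at or near background. CALB2 was well above background on 1 IMF, 1 Inter and 1 LD array and on none of the 12 Omen arrays, where its values ran from -9.76 to -7.96. ITLN1, a lectin of omental stromal and mesothelial cells in other species, was well above background on 1 Omen, 1 Kid and 1 LD array, and in Omen it ran from -9.80 to -6.27. At this signal a lower level in other depots could not be told apart from background.

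The genes most like MSLN and UPK3B were searched over 21319 probes with 1 gene name that were well above background on at least 12 of the 60 fat arrays. Likeness is Pearson's r over these arrays, given as a description into which the uneven spread of the Omen arrays enters. For MSLN the 5 highest were LOC505033 (0.868), the lipoxygenase gene ALOX15 (0.830), the complement component C3 (0.799), the polarity gene PARD6B (0.799) and the complement regulator CFI (0.791). For UPK3B they were the cytokine receptor subunit gene IL20RB (0.885), LOC505033 (0.863), ELMO3 (0.841), C3 (0.834) and ALOX15 (0.821). LOC505033, C3 and ALOX15 appeared for both. As these genes were picked on the same arrays, their differences are descriptions with no test. The Omen minus SC difference was 1.69 for C3, 1.67 for ALOX15, 3.39 for CFI, 2.76 for PARD6B, 3.47 for LOC505033, 0.22 for IL20RB and 0.83 for ELMO3.

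For KRT18 the 5 most alike genes were STRA6, the retinol transporter (0.891), CLDN1, a tight junction protein (0.888), PLLP, the membrane protein plasmolipin (0.887), the cadherin gene CDH7 (0.873) and the ligand gene WNT6 (0.872). CLDN1 ran from -2.14 to 4.11 in Omen and from -2.32 to 2.92 in IMF, with a mean of -3.43 in SC. Its differences from SC were 3.85 in Omen and 3.77 in IMF, and those of STRA6 4.56 and 4.76, again with no test because the same arrays chose both genes. Searched in IMF alone, an alternative added after the data were seen, the genes most like KRT18 over the 12 IMF arrays included CLDN1 (0.981), KLK10 (0.978), CADM1 (0.977) and WNT6 (0.974).

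Other mesothelial genes were listed without the members. Of 15 listed genes, 7 were tested, and in Omen against SC 3 were higher and 2 lower, with a median difference of -0.09, beside 20.5% and 25.2% of all probes. PDPN, the glycoprotein podoplanin (1.27, adjusted p = 0.0206), GPM6A, a membrane glycoprotein (1.71, adjusted p = 0.032), and the claudin gene CLDN15 (1.22) were higher. ANXA8L1 (-1.87) and TBX18, a transcription factor of the mesothelium (-0.55), were lower. In IMF against SC 0 were higher and 2 lower, beside 31.2% and 33.0% of all probes. The mean of the list was highest on the same 5 Omen arrays as the members, at 1.02 or more on them and 0.35 or less on the others. GPM6A was at 1.05 or more on those 5 arrays and at -2.16 or less on the others, PDPN at -0.72 or more against -1.53 or less. The remaining tested genes of the list followed these arrays less fully. Among the 5 highest Omen arrays of each, these arrays took 4 places for ANXA8L1, 3 for UPK1B and 2 each for CLDN15, TBX18 and DMKN.

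Of 26 other keratins, 5 were higher and 7 lower in Omen than in SC (median 0.03), close to the shares of all probes called (20.5% higher and 25.2% lower). Among the 5, KRT17, a keratin of stressed and basal epithelium (1.30, adjusted p = 0.0094), and KRT24 (1.63, adjusted p = 0.00108) stood with KRT6A, KRT80 and KRT89. KRT15, a basal keratin, was highest on the same 5 Omen arrays (-0.65 or more, against -2.01 or less on the others), while its Omen minus SC difference of 0.69 did not pass (adjusted p = 0.0674). KRT17 and KRT80 had the same 5 arrays highest, too, KRT80 with a narrow gap (-3.26 or more, against -3.40 or less). The rest of the 26 did not. Each of them had 1 to 3 of these arrays among its 5 highest, among them KRT6A with 3 and KRT24 and KRT89 with 2. In IMF against SC 7 of the 26 were higher and 4 lower (median 0.33), beside 31.2% and 33.0% of all probes. Many of these keratins are those of hair and skin.

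The counts of the lists in this and the next paragraph stand beside the shares of all probes called. These were 20.5% higher and 25.2% lower in Omen against SC, and 31.2% and 33.0% in IMF against SC. The lists are short. In IMF against SC the skeletal muscle, smooth muscle, adipocyte and macrophage lists lay far from those shares, with every tested gene called in the same direction. Of 9 genes of simple epithelium (CDH1, EPCAM, claudins and others) tested, 0 were higher and 3 lower in Omen than in SC (median -0.13), and 2 were higher and 4 lower in IMF than in SC (median -0.19). Genes of stratified epithelium had 2 higher and 1 lower of 8 in Omen, and 3 and 3 in IMF. Desmosome genes had 2 higher and 2 lower of 4 in both comparisons.

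Lists for the other cell types a depot can hold gave the surroundings of these values. Skeletal muscle genes were higher in IMF than in SC for 9 of 9 tested (median 11.2), and the mean of the list ran from 6.31 to 8.10 over IMF, from 8.40 to 9.21 over LD, from -5.06 to -3.36 over Omen and from -4.39 to -2.79 over SC, so the IMF arrays carried signal of muscle genes. In Omen against SC 0 of these 9 were higher and 6 lower (median -0.90). Smooth muscle genes were higher in IMF for 8 of 8 (median 2.97) and for 0 of 8 in Omen, and adipocyte genes lower in IMF for 7 of 7 (median -1.40) and in Omen for 3 of 7 with 1 higher. Macrophage genes were lower in IMF for 4 of 4, and in Omen for 1 of 4. In Omen against SC, kidney epithelium genes had 0 called of 3, adrenal cortex genes 1 lower of 5, gut epithelium genes 1 higher of 2, lymphoid genes 1 higher and 2 lower of 6, and endothelium genes 2 higher of 4. In IMF against SC those lists had 2 lower of 3, 3 higher and 2 lower of 5, 1 higher of 2, 3 lower of 6, and 2 lower of 4. The part of these cell types in the member values was not tested.

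KRT18 varied widely within IMF, and it was set against the mean of each list over the 12 IMF arrays. Of 14 lists, the mesothelial list passed by Pearson's r alone, with r = 0.864 for KRT18 A_73_118812 (permutation test, two-sided, adjusted p = 0.00574 over 14 lists; r = 0.808 without the 2 arrays farthest from the median of the list). Its rho of 0.755 did not pass (permutation adjusted p = 0.0823). For the other 13 lists the permutation adjusted p of r was 0.107 or more, among them skeletal muscle (r = -0.648) and adipocyte (r = 0.641). In the same IMF arrays KRT18 had a correlation of 0.05 with MSLN and of -0.788 with UPK3B A_73_117678. What cells carried KRT18 in any tissue was not tested.

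No member passed the threshold for breed. Over the 60 fat arrays, with depot in the model, 0 of 10 member probes passed the F test of 3 breeds (lowest limma adjusted p = 0.521; 0 at an unadjusted p under 0.05), where 3.2% of all probes did. Within Omen 0 passed (0.0146% of all probes; lowest adjusted p = 0.768; 0 unadjusted), and within IMF 0 passed (0.0555%; lowest adjusted p = 0.246; 3 unadjusted). With 4 arrays per breed the intervals were wide. KRT18 in IMF averaged -0.78 (SD 2.73) in Angus, 0.06 (SD 2.90) in Hereford and 1.79 (SD 1.41) in Wagyu x Angus, n = 4 each. The Wagyu x Angus minus Angus difference of 2.57 had a 95% interval of -0.78 to 5.91. For MSLN in Omen the breed means were -3.41 (SD 2.43), -2.20 (SD 3.08) and -2.54 (SD 3.44) in the same order, and the Hereford minus Angus interval ran from -2.85 to 5.26. The dependence of the Omen minus SC difference on breed was past the threshold for 0 of 10 member probes, and for 0.0% of all probes (1433 probes at an unadjusted p under 0.05, none of them a member).

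In LD, the tissue sampled on both diets, 0 of 10 member probes passed for supplement against pasture (lowest limma adjusted p = 0.0929; 1 unadjusted), where 11.2% of all probes did, and 0 of 10 for breed (lowest adjusted p = 0.055; 2 unadjusted), where 25.3% did. KRT18 differed between the diets by 0.07 with a 95% interval of -0.58 to 0.72, and MSLN by -0.28 (adjusted p = 0.399).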

How the data were processed

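RNA of 96 samples was read on one-colour Agilent 4x44K bovine arrays with Feature Extraction 10.7.3.1. For each array the authors deposited scanner intensity values, among them the processed signal used here, background-subtracted and not scaled between arrays. A series matrix of log2 values, likewise deposited, equals within 0.0001 the log2 of median signal less median local background, floored at 1. It fixed the probes tested and served as an alternative. Here log2 of the processed signal minus each array's 75th percentile was taken over 43653 probes, outlier spots (0.223%) were left out, no spot was saturated, and spots of a probe were averaged. The mixed model normalisation of the study was not repeated.

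Names came from RefSeq accessions of the annotation table or from the study's probe tables, for 21445 probes (62.7% of those tested). Breed, depot and diet came from the labels. The members and lists were chosen with earlier results of these data known. All members with a tested probe are named, a gene with several probes being represented by its brightest for counts per gene, together with the 5 genes most like KRT18, MSLN and UPK3B; KRT8 A_73_108833 was added because the study lists it. Groups were fitted with limma 3.58.1 in R 4.3.3 on the arrays compared, with breed tests over the fat depots adjusted for depot, and checked on simulated data. Permutation tests used 100000 resamples with numpy 2.4.6 and scipy 1.17.1. A bound replaces a group not well above background by its detection limit. Alternatives were quantile normalization, centring on the mean, normexp on the median spot signal, series matrix values, probe filters, the methods' t-test, breed, slide, scan day and replicate number as terms, 1 fit of 6 tissues, other probes per gene and leaving out each array. Replicate numbers equal the array position on the slide for 96 of 96 arrays. The number of arrays limits the precision. Results of some single genes, and of 1 marker list that rests on them, are not reported here.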

Additional observations from a re-analysis of the deposited data

Results flagged for a closer look

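For 6 member probes in IMF and Omen, the gap between an extreme array and its neighbour was set against the range of each group of 4 arrays of 1 breed. SC, Inter and Kid were not examined in this way. Of 35 such groups 2 were past the 95% limit, and chance alone marks about 1 in 20. For KRT8 A_73_P245050 in IMF of Angus, the array Angus a stood at -0.78, below its 3 companions at 0.04 to 0.19. The same array had the highest KRT18 of the 4 (2.93). For MSLN A_73_P263591 in IMF of Wagyu x Angus, the array Wagyu x Angus d stood at -6.46, with the nearest companion at -5.47.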

How the results depend on the processing

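Of the counts of called probes and genes, 207 recomputed values stayed within 1.5 times and 15 did not, and of single probes 562 kept direction and call, 13 gained and 16 lost a call and 15 turned sign. KRT18 and KRT8 A_73_108833 kept their calls in Omen against SC under 25 alternatives (1.41 to 3.21 and 2.64 to 4.01), in IMF against SC (3.38 to 5.30 and 3.48 to 4.96) and in IMF against LD (2.93 to 4.69 and 2.73 to 3.96). MSLN in Omen against SC ran from 1.09 to 3.32, with an adjusted p from 3.4e-07 to 0.0598. The unscaled series matrix values moved the median of all probes by 0.85 in Omen against SC, 0.63 in IMF against SC and 0.77 in IMF against LD, and there 99.0% of the probes called in Omen against SC were higher, against 44.9% in the main setting; with normexp it was 16.4%.

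Signs turned for KRT19 and KRT8 A_73_P245050 in Omen against SC on the series matrix values (0.35 and 0.64), for MSLN in IMF against SC under quantile normalization (-0.13) and normexp (-0.46), for KRT19 in IMF against SC on the series matrix values (0.50) and with scan day as a block (0.054), and for KRT19 in IMF against LD under quantile normalization (0.44), normexp (0.025), the series matrix values (0.73) and scan day (0.0057). MSLN in IMF against LD turned on the series matrix values (0.27). KRT8 A_73_P245050 in Omen against Kid turned under normexp (0.0054), the centred series matrix values (0.063) and scan day (0.047), and ranged from -0.097 to 0.0045 with each array left out. The cause was not tested.

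Of 10 member probes, those called in Kid against SC were 10 under normexp, 2 in 1 fit of 6 tissues and 2 with scan day, against 4; in Inter against SC 10 under normexp, against 4; in IMF against SC 5 with scan day, against 8; in Omen against Kid 7 with scan day and 2 with slide as a random block, against 4; in Omen against Inter 3 with slide, against 9; and in LD against SC 5 on the series matrix values, 4 in 1 fit, 4 with scan day and 5 with slide, against 8. Genes called in Omen against IMF were 2 by the mean over probes, against 4. For breeds, 0 to 1 probes were called in IMF with each array left out (1 without Angus a) and 1 in LD on the centred series matrix values. With the replicate number as a block, 6 of 10 member probes were called in Omen against SC and MSLN differed by 3.02 (adjusted p = 0.00612); correlations of same-numbered Omen and SC arrays were 0.087, 0.036, -0.010 and 0.10, so the numbers were not taken as pairs. The number of arrays and the signal over background of CALB2, ITLN1 and the dim keratin probes limit what could be seen.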

Other observations

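CALB2 was near background nearly everywhere, but 3 single arrays from different tissues were well above it. Inter Wagyu x Angus c read -1.45, LD Hereford supplement b -3.61 and IMF Hereford d -3.81, against a median of -8.77 in Inter, -7.74 in LD and -7.67 in IMF. The Kid array with the highest KRT18 (-2.26), Angus c, also had the highest KRT8 A_73_108833 of its depot (-1.37), while its MSLN was -5.07, inside the range of the depot.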
